A study of Mus musculus with 12 samples.

Results

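Mouse ependymomas labelled as overexpressing NPY were set against non-tumour mouse cortex. The comparison takes 6 of the 12 libraries of the series, 3 of NPY-labelled tumours and 3 of cortex, chosen by their sample titles. The cortex was wild-type tissue. The NPY-labelled tumours carry the ZFTA-RELA fusion together with an overexpressed human variant of NPY, and the 3 control tumours used for reference are labelled with the fusion alone. All were bulk tissue sequenced as polyA RNA, and the series, titled for histone serotonylation in ependymoma, holds 3 ETV5 tumours as well. The labels give no age, strain, promoter or delivery method, and do not say that each replicate was a separate animal. Replicate 1 of cortex, control and NPY-labelled tumours held Ddx3y, a Y-linked gene, at 84.6, 87.5 and 106 CPM and Xist, expressed from the inactive X, at 0.403, 0.741 and 0.486. Replicates 2 and 3 held Xist at 390 to 824 CPM and Ddx3y at 0 to 1.01, so replicate 1 did not share its animal with them, and replicate number and sex coincide in these groups. Whether replicates 2 and 3 are separate animals is not stated, and to that extent the p-values measure a spread between samples that may be technical. The tumours differ from cortex by the fusion, the tissue and the added NPY at once, so this comparison cannot tell these apart. The step from control to NPY-labelled tumours was therefore tested beside it.

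Ependymoma is a tumour of the brain and spinal cord with features of ependyma and radial glia. In the supratentorial form a fusion of ZFTA, a zinc finger protein, with RELA, the p65 subunit of NF-kB, makes a chromatin-bound transcription activator. Neuropeptide Y is a secreted peptide of cortical interneurons, cut from its precursor by prohormone convertases and sensed by G protein-coupled Y receptors.

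Some of the genes that rose most had almost no reads in cortex, and the sequences at their starts are shown for 3 of them, chosen as the 3 with the highest tumour level that had 0 to 3 cortex reads and a promoter entry. Each run covers 250 bases before and 50 bases after the annotated start in RefSeq for build GRCm38.p6, written in the direction of transcription. Capitals mark matches to a loose form of the NF-kB site, GGG then 5 bases of any kind then CC, searched on both strands. Tmem184a, a membrane protein gene, is shown at the more upstream of its 2 entries, chr5:139814234-139814533 on the minus strand. Cxcl13, the B cell attractant chemokine, is at chr5:95956689-95956988 on the plus strand. Akr1cl, an aldo-keto reductase gene, is at chr1:65032710-65033009 on the minus strand.
Tmem184a: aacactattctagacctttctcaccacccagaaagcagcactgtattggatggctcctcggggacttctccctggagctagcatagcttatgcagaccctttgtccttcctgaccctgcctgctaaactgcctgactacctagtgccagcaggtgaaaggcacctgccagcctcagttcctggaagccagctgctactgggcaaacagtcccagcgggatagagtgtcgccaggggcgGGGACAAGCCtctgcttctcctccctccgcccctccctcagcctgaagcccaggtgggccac
Cxcl13: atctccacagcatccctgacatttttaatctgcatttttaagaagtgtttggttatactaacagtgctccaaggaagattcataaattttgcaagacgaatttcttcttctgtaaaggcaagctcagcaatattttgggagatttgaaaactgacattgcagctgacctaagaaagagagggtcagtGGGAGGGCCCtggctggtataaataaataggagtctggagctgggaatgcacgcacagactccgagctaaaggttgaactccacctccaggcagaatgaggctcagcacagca
Akr1cl: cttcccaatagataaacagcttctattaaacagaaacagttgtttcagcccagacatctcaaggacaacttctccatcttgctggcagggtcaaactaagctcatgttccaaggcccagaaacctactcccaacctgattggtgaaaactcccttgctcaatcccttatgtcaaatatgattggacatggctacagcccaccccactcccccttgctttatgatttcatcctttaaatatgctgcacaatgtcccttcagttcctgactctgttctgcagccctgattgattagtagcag
The Tmem184a and Cxcl13 windows held 1 match each and the Akr1cl window held 0. Of 32851 promoters of this length, 50.8% held the motif, so a match is a description of the letters and no more. Nr5a1, Wt1, Gata4 and Dmrt1, which also rose from 0 to 3 cortex reads, had no entry.

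Depth was 5962376 to 7444467 reads in the cortex libraries, 8214523 to 10481943 in the NPY-labelled tumours and 6266613 to 9443466 in the control tumours. Levels are CPM, recovered reads scaled to the total of a library, and are not per length. The log2 fold change and its SE (standard error) were estimated by limma on log2(value + 1), which understates the change of low genes. The word called marks a Benjamini-Hochberg adjusted p under 0.05 over all genes tested. Across genes, which are no independent replicates, Pearson's r between libraries of a group was 0.989 to 0.991 in cortex and 0.949 to 0.979 in NPY-labelled tumours. Rn45s, the ribosomal RNA precursor, stood apart in cortex replicate 2, at 3943.1 CPM against 735 and 732 in the others, and ranged from 1460.9 to 5868.9 in NPY-labelled tumours. The library names code all cortex and control libraries DS and all NPY-labelled libraries EC, so code and group cannot be told apart within these libraries. ETV5 replicate 3 alone among the ETV5 libraries is coded EC, and a fit over all 12 libraries with the code as a term rests on it.

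The targeted genes were examined first. Mouse Npy (chromosome 6, 49822710 to 49829507, plus strand, mm10) stood at 78.4, 128 and 129 CPM in cortex, at 27.2, 21.5 and 46.1 in control tumours and at 5.59, 2.19 and 15.9 in NPY-labelled tumours. All NPY-labelled libraries lay under all cortex and control libraries. The log2 fold change against cortex was -4.34 (SE 0.63, limma adjusted p = 0.000578), a 20.2-fold fall that was 12.6-fold without NPY replicate 2 and 32.4-fold without NPY replicate 3. Against control tumours the difference of -2.25 did not pass (adjusted p = 0.113). The added NPY is human, and reads at the mouse gene do not measure it, so the label was not checked by them. Reads at the fusion partners were higher: Rela (chromosome 19, 5637483 to 5648130) stood at 18.9, 19.1 and 18.5 CPM in cortex and at 77.1, 101 and 85.3 in NPY-labelled tumours. Zfta, whose row carries the older symbol 2700081O15Rik (chromosome 19, 7417625 to 7425904), stood at 46.6, 39.9 and 37 CPM in cortex and at 260, 468 and 267 in the tumours. Both were called, at 4.17-fold (log2 fold change 2.06) and 7.03-fold (2.81), and neither differed from control tumours beyond the threshold (adjusted p = 0.807 and 0.229). Gene counts cannot tell the fusion from the genes themselves.

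Across all genes, limma tested 14613 and called 10366, which is 70.9%. Of these 5195 (35.6%) were higher and 5171 (35.4%) lower in NPY-labelled tumours, and the median log2 fold change over all tested genes was 0.01. The groups did not overlap in CPM for 11297 genes (77.3%). At least 4-fold changes were called for 4788 genes (32.8%), 2133 higher (14.6%) and 2655 lower (18.2%). Every count of a gene list against cortex below is to be read against these shares. Genes were tested only if enough libraries held reads. A gene near 0 in cortex was thus tested only through the tumours, which largely fixes its direction. In the same way a gene near 0 in the tumours was tested only through cortex, which largely fixes a fall. Scaling by total reads moved the median of all genes to 0.15. With the code prefix as a term 6863 genes were called, 3265 higher and 3598 lower. The depth of the falls differed from that in control tumours: 1163 genes fell at least 16-fold and 354 at least 64-fold, against 244 and 2 in the same count for control tumours against cortex. Among rises the counts were 822 and 219 against 743 and 190. For control tumours against cortex 10531 of 14621 genes were called (72%), 5411 higher (37%) and 5120 lower (35%), with 3999 at 4-fold or more (27.4%), 2099 higher (14.4%) and 1900 lower (13%). Their groups did not overlap for 77.4%. The 2 comparisons share the cortex libraries, and the difference between these counts was not itself tested.

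**Figure D1:**
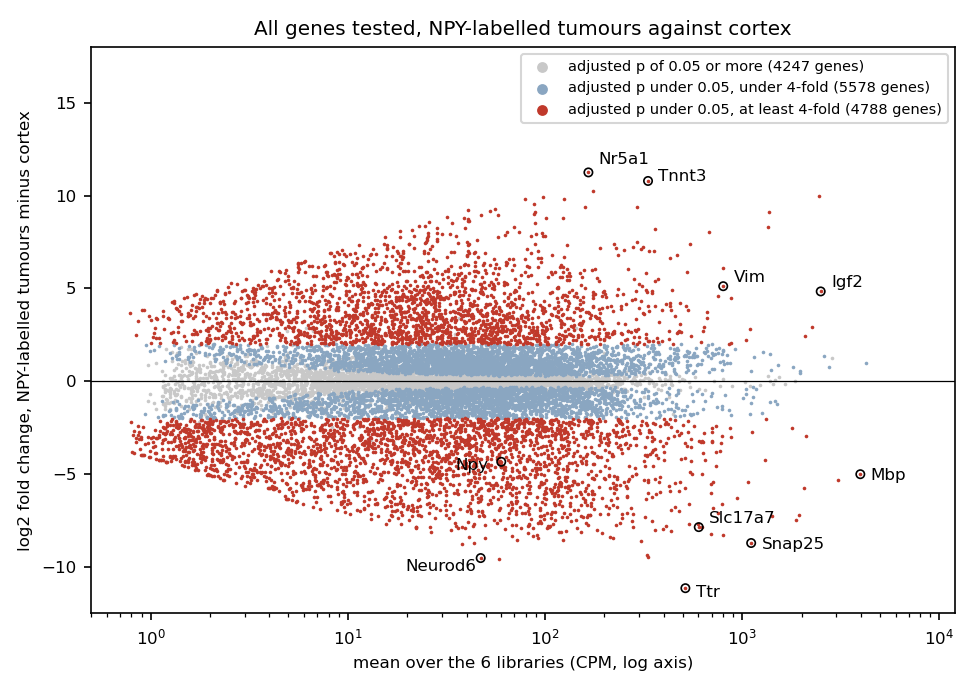
Each point is 1 of the 14613 genes tested, with its mean over the 6 libraries (CPM, log axis) against its log2 fold change, NPY-labelled tumours minus cortex. Grey genes were not called, blue genes were called under 4-fold and red genes were called at 4-fold or more. Nr5a1 and Tnnt3 lie at the top, at 11.25 and 10.79, and Ttr at the bottom, at -11.14.

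Most of the largest falls named here were in genes of cortical neurons. Neurod6, a transcription factor of excitatory neurons (chromosome 6, 55677822 to 55681263), stood at 132, 92.9 and 58.5 CPM in cortex and at 0 reads in all NPY-labelled libraries, at least 852-fold lower against 3 reads over the group. Control tumours held 1.38, 3.19 and 6.7 CPM of it. Slc30a3, the zinc transporter of synaptic vesicles, stood at 102, 131 and 117 CPM in cortex and had 1 read in the NPY-labelled tumours, a ratio of 3109 (exact 95% interval 557 to 122851.8). These bounds and intervals cover counting error only. Snap25, a protein of vesicle fusion, stood at 2016, 2473.3 and 2136.6 CPM in cortex and at 5.59, 4.38 and 7.44 in the tumours (log2 fold change -8.71, SE 0.19, limma adjusted p = 3.1e-07). Vsnl1 and Hpca, neuronal calcium sensors, fell by 9.49 and 9.34 on the log2 scale, from 661 ± 76.7 and 656 ± 157 CPM to 1.01 ± 0.706 and 0.981 ± 0.255 (SD, n = 3). Camkv, a kinase-like protein of synapses, fell 389-fold and Kcnip2, a potassium channel subunit, 348-fold. Gabrd, the delta subunit of GABA receptors, had 2 reads in the tumours, a ratio of 1012.4 (280 to 8366.9), and Cacng3, an AMPA receptor partner, had 3, a ratio of 783 (268 to 3800.6). The fitted fall was larger still for a gene of another tissue, Ttr, the transthyretin gene of choroid plexus, which stood at 1212.7, 1346.3 and 531 CPM in cortex and at 0.729, 0 and 0.763 in the tumours. It fell 2261.5-fold, with a log2 fold change of -11.14 that was -10.22 without NPY replicate 2.

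The lists of neuronal genes fell as groups. Of 14 genes of cortical excitatory neurons all 14 fell (median log2 fold change -6.02), as did all 16 pan-neuronal genes (-5.86) and all 20 genes of vesicle release (-6.32). Slc17a7, the vesicular glutamate transporter, stood at 1294.5, 1264.9 and 1034.9 CPM in cortex and at 9.23, 3.53 and 5.25 in NPY-labelled tumours, 231-fold lower (log2 fold change -7.85, SE 0.31, limma adjusted p = 1.3e-06). Camk2a, a kinase of excitatory synapses, fell from 3728.5 ± 419 to 22.7 ± 2.47 CPM, and Tbr1, a factor of deep-layer neurons, from 98.5 ± 13.8 to 0.37 ± 0.00974. Syt1, the calcium sensor of vesicle release, fell from 1593.7 ± 129 to 5.67 ± 1.54 CPM. Nrgn, a postsynaptic calmodulin-binding protein, fell 228-fold and Rph3a, a vesicle protein, 210-fold. The cortex markers Slc17a7, Tbr1, Neurod6 and Camk2a were all high in the cortex libraries and called lower in the tumours. In bulk samples fewer cells of a type and less RNA per cell cannot be told apart.

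Among 15 genes of GABA interneurons 14 fell and 1 rose (median log2 fold change -5.65). Gad2, a GABA-synthesizing enzyme, stood at 167, 166 and 289 CPM in cortex and at 0.486, 0.609 and 1.91 in the tumours, 226-fold lower, and no library of the groups overlapped. Vip, a peptide of interneurons, fell 239-fold, from 78.2 ± 31.6 to 0.217 ± 0.0852 CPM. The 1 that rose was Maf, a transcription factor that macrophages express too, from 16.5 ± 2.99 to 83.6 ± 37.9 CPM. The 3 NPY-labelled libraries lay over all cortex libraries, and the Maf call was lost with the code prefix as a term (adjusted p = 0.0607). Of 22 glutamate and GABA receptor subunits 21 fell (median -5.26). Gria2, an AMPA receptor subunit, kept 37.5 ± 21.6 CPM of 594 ± 29.7 and fell 19.6-fold.

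Taken per library, the median excitatory neuron gene stood at 0.924, 2.22 and 2.62% of its cortex mean in the NPY-labelled tumours and at 7.05, 7.99 and 15.3% in the control tumours. The values for interneuron genes were 0.717, 0.67 and 1.28% against 7.2, 5.62 and 11.5%. For both lists every NPY-labelled library lay under every control library. The ETV5 tumours stood at 1.22, 9.15 and 2.92% for excitatory and 1.13, 7.82 and 2.92% for interneuron genes. They overlapped the NPY-labelled libraries in both lists, and that difference was not tested. Summed over the excitatory list, NPY-labelled tumours held 102 to 141 CPM, control tumours 456 to 904, ETV5 tumours 102 to 615 and cortex 6408.6 to 7866.7. The difference between the tumour sets was tested gene by gene: of the tested members, 8 of 14 excitatory, 10 of 16 pan-neuronal and 14 of 20 vesicle release genes were called lower in NPY-labelled than in control tumours, and 0 higher. Over all 14425 genes tested there, 726 were called (5.03%), 621 lower (4.31%) and 105 higher (0.728%). At 4-fold or more 385 were called (2.67%), 379 lower (2.63%) and 6 higher (0.0416%), and the groups did not overlap for 4266 genes (29.6%). Slc30a3 was lower by 5.82 on the log2 scale (limma adjusted p = 0.0122), Snap25 by 4.53 (0.0122), Slc17a7 by 4.22 (0.0124) and Camk2a by 3.56 (0.00884), each in 3 of 3 libraries under all controls. These calls rest on few libraries: the 4 just named were lost without control replicate 2 (adjusted p = 0.0678 to 0.0728). Without control replicate 2 there was 1 call among all genes, without control replicate 3 there were 75, without NPY replicate 1 128 and without control replicate 1 138, and with the code prefix as a term 32.

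**Figure D2:**
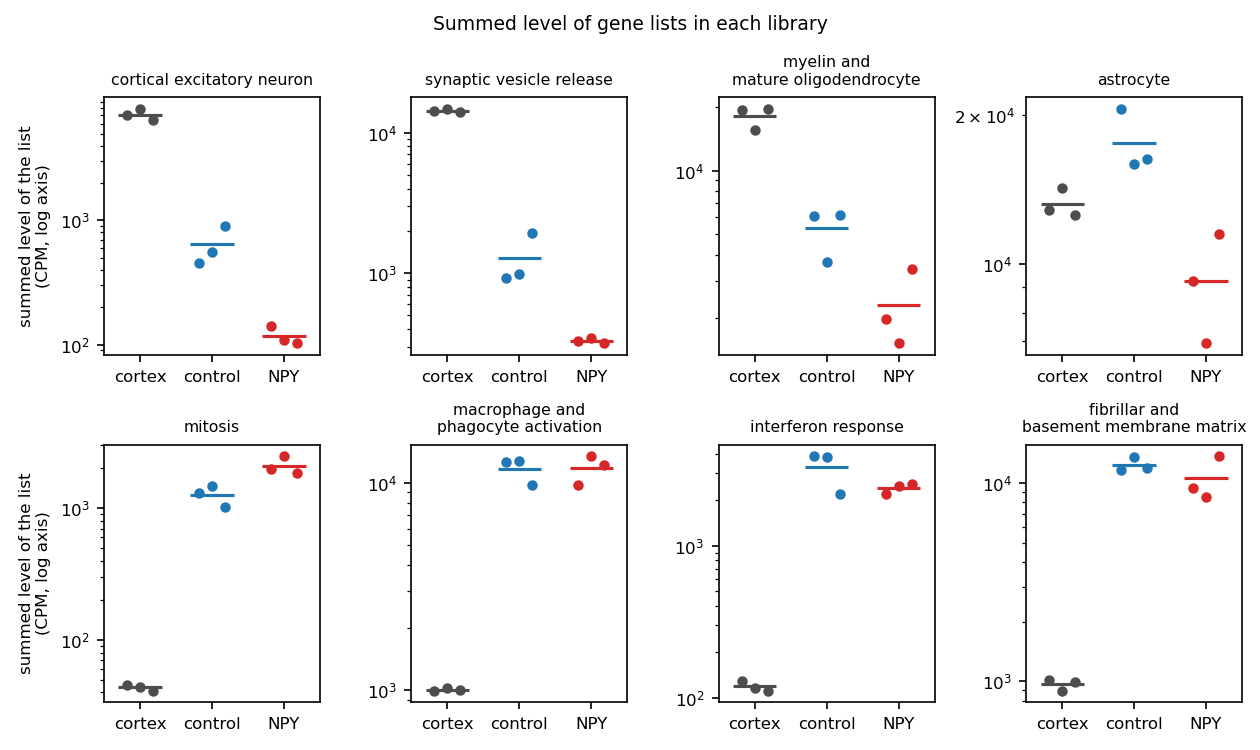
Points are libraries (3 per group) and lines their means, for the summed level of 8 gene lists (CPM, log axis, a scale of its own in each panel). Among the groups shown, the NPY-labelled tumours hold the least neuronal and myelin transcript, 102 to 141 CPM for the excitatory list, and the most mitosis transcript, 1853.6 to 2470.3 CPM. The ETV5 tumours, not shown, overlapped them in the excitatory list, at 102 to 615 CPM. For myelin they stood at 2700.6 to 4651.5 CPM against 1516.5 to 3421.9 in NPY-labelled tumours.

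Peptide signalling genes were lower as well. Of 12 listed NPY receptor and peptide processing genes 10 passed the filter on low reads and all 10 fell (median -3.60). Npy4r and Npy6r were too low to test. Npy1r, the main postsynaptic Y receptor, stood at 25.4, 22.1 and 20.6 CPM in cortex and at 6.68, 6.7 and 6.87 in NPY-labelled tumours (log2 fold change -1.87, SE 0.18, limma adjusted p = 6.3e-05). Control tumours held 6.67, 3.74 and 7.66 CPM, and the tumour groups overlapped. Npy2r, a presynaptic Y receptor, stood at 18.3, 3.86 and 14.3 CPM in cortex and at 0.486, 0.243 and 0.286 in the NPY-labelled tumours. It was 24.4-fold lower than in cortex (39.6-fold without cortex replicate 2) and lower than in control tumours by 3.11 on the log2 scale (adjusted p = 0.0302), a call lost without any 1 of the 6 libraries (adjusted p = 0.0538 to 0.117), with limma-voom (0.0551) and with a replicate block (0.0804). Npy5r had 3 reads in the NPY-labelled tumours, a ratio to cortex of 32.7 (exact 95% interval 10.8 to 162).

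Pcsk2, a prohormone convertase, stood at 360, 397 and 335 CPM in cortex, at 16.9, 22.5 and 49.8 in control tumours and at 1.7, 0.974 and 1.62 in NPY-labelled tumours. It fell 263-fold against cortex (log2 fold change -8.04, SE 0.22, adjusted p = 4.4e-07) and by 4.07 against control tumours (adjusted p = 0.0124, and 0.0728 without control replicate 2). Scg5, the chaperone of that convertase, fell 64.8-fold and Pcsk1n, an inhibitor of its relative Pcsk1, 33.5-fold. Pcsk1 itself fell 9.06-fold, with NPY-labelled libraries at 6.44, 0.609 and 2.67 CPM, by 14.7-fold without NPY replicate 1 and 5.04-fold without NPY replicate 2. Cpe, the carboxypeptidase of the pathway, kept a high level, 599 ± 229 against 2982.4 ± 115 CPM. Pam, which amidates peptides, fell 2.38-fold, and Dpp4, which trims NPY, fell 2.74-fold to 3.02 ± 0.152 CPM. With the code prefix as a term Pcsk1, Pam and Dpp4 were not called (adjusted p = 0.622, 0.171 and 0.832), and the Dpp4 value turned to 0.29. The Dpp4 call was lost in the fit over 12 libraries without that term too (adjusted p = 0.0583). Of 24 neuropeptide precursors 20 were tested and 19 fell (median -5.16). Chga and Chgb, granins of secretory granules, fell 82.4-fold and 143-fold, and both were lower than in control tumours, by 4.21 and 4.05 on the log2 scale (adjusted p = 0.0129 and 0.0122). Without control replicate 2 neither was called (adjusted p = 0.0678 and 0.0728), and Chgb was not without control replicate 3 (0.0502).

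**Figure D3:**
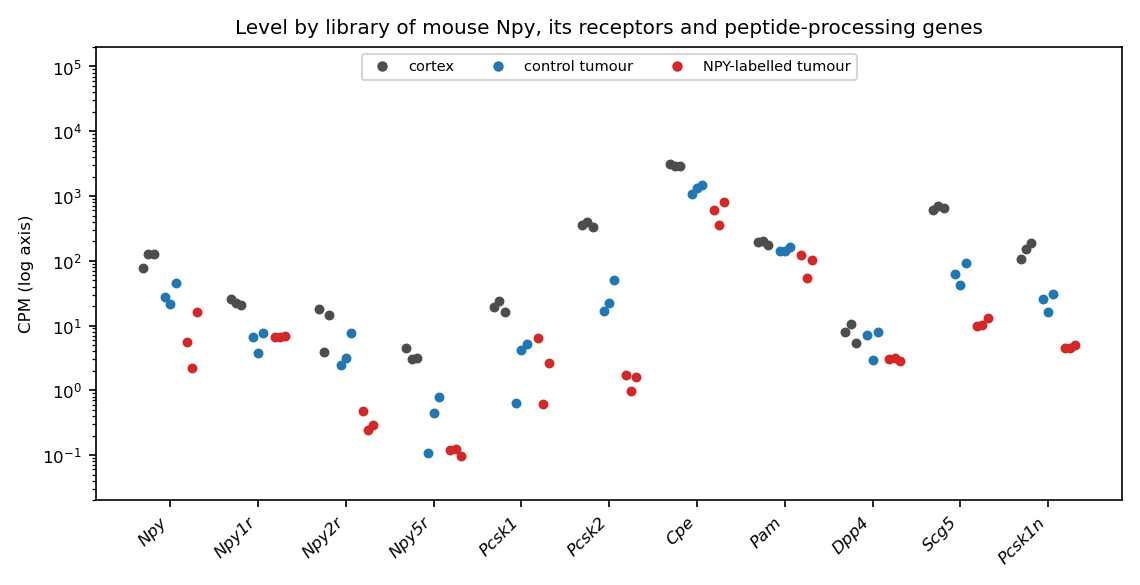
Points are the libraries of cortex, control and NPY-labelled tumours for mouse Npy, its receptors and peptide-processing genes (CPM, log axis). Npy, Npy2r, Pcsk2, Scg5 and Pcsk1n stand lowest in the NPY-labelled libraries, and for Npy1r the tumour groups overlap.

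Of 25 listed serotonin genes 18 were tested, 15 fell and 3 rose (median -2.85). Tgm2, a transglutaminase able to couple serotonin to histones, stood at 10.9, 10.1 and 12 CPM in cortex and at 488, 468 and 717 in NPY-labelled tumours, 44.8-fold higher (log2 fold change 5.48, SE 0.17, limma adjusted p = 6.5e-07). Its level in control tumours, 404, 498 and 382 CPM, overlapped. Tgm1, a relative, rose from 0.341 ± 0.0746 to 2.79, 2.43 and 13 CPM, 9.11-fold and 5.42-fold without NPY replicate 3. Ddc, which makes serotonin from its precursor, stood at 11.4, 9.06 and 11.1 CPM in cortex and at 21.1, 17.4 and 14.1 in the tumours, 1.49-fold higher. The Ddc call (adjusted p = 0.0444) ended when any 1 library other than NPY replicate 3 was left out (adjusted p = 0.0502 to 0.149) and with DESeq2 (adjusted p = 0.0521). With the code prefix as a term neither Tgm1 (adjusted p = 0.0857) nor Ddc (0.942, with a value of -0.09) was called. Maoa, the monoamine oxidase that breaks serotonin down, was 3.08-fold lower, at 16.6 ± 4.86 CPM. The receptors Htr1a and Htr2c had 3 reads each in the tumours, with ratios of 218 (74 to 1058.5) and 478 (163 to 2320.7). Tph1, the transporter Slc6a4 and 5 others did not pass the filter on low reads.

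Glial lists moved apart. Myelin genes fell in 12 of 15 and rose in 2 (median -4.03). Mbp, myelin basic protein, stood at 8081.4, 6586.8 and 8128.6 CPM in cortex and at 130, 202 and 668 in NPY-labelled tumours, 32.1-fold lower and 50.5-fold lower without NPY replicate 3. Myrf, the myelin regulatory factor, rose 5.80-fold to 424 ± 83 CPM, and Trf, the transferrin gene, rose 3.06-fold to 830 ± 476 CPM. Of 13 oligodendrocyte precursor genes 7 fell and 1 rose (median -0.87): Gpr17 fell 6.63-fold, Ptprz1, a receptor phosphatase, fell 4.10-fold, and Sox10, the lineage factor, rose 3.29-fold. Astrocyte genes fell in 11 of 15 and rose in 3 (median -1.95). Slc1a2, the main glutamate transporter, stood at 4110.3, 4431.3 and 3465.9 CPM in cortex, at 525, 639 and 611 in control tumours and at 72.1, 53.6 and 147 in NPY-labelled tumours. It was 53.1-fold lower than cortex and lower than control tumours by 2.75 on the log2 scale (limma adjusted p = 0.0153). Gjb6, an astrocyte connexin, was 48.4-fold lower than cortex and lower than control tumours by 3.28 on the log2 scale (adjusted p = 0.0153). Without any 1 control library neither was called (adjusted p = 0.0562 to 0.0821), nor was Slc1a2 without NPY replicate 1. Sox9, a glial factor, rose from 19.5 ± 0.651 to 126 ± 1.69 CPM, and Clu, clusterin, from 1282.6 ± 29.5 to 3897.8 ± 1546.7. Apoe, the lipid carrier that macrophages express too, rose 1.67-fold. With the code prefix as a term Trf, Sox10, Clu and Apoe were not called (adjusted p = 0.292, 0.843, 0.112 and 0.963), with Apoe at -0.04, and Apoe was lost in the fit over 12 libraries without that term (adjusted p = 0.0865).

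The 17 genes of radial glia and stem cells were split, with 8 higher and 7 lower (median 0.56). Vim, an intermediate filament, stood at 41.9, 38.7 and 38.1 CPM in cortex and at 1926.9, 1126.1 and 1633.5 in the tumours, 34.8-fold higher (log2 fold change 5.12, SE 0.18, limma adjusted p = 9.8e-07). Nes, nestin, rose 17.1-fold to 200 ± 103 CPM. Slc1a3, a glutamate transporter of radial glia and astrocytes, fell 11.8-fold to 80.4, 50.5 and 196 CPM, and lay under control tumours by 2.48 on the log2 scale (adjusted p = 0.0362, and 0.113 to 0.121 without NPY replicate 1 or any 1 control library). Motile cilia genes, which mark mature ependyma, fell in 15 of 18 tested of 20 and rose in 1 (median -3.14). Rfx3, a ciliogenesis factor, fell 7.89-fold to 8.87 ± 2.94 CPM, and Hydin, a central pair protein, rose 31-fold to 124, 79.9 and 46.4 CPM. Of 15 choroid plexus genes 12 were called lower and 2 higher (median -3.51). Cldn2, a claudin, rose 33.1-fold, and the call was lost with the code prefix as a term (adjusted p = 0.0816). Aqp1, a water channel, stood at 84.5, 6.94 and 212 CPM in the tumours against 5.77 ± 3.0 in cortex. The Aqp1 groups overlapped, and its call (adjusted p = 0.0436) ended without any 1 library other than NPY replicate 2 (adjusted p = 0.0776 to 0.144). Without NPY replicate 2 the log2 fold change was 4.54, and without NPY replicate 3 it was 2.11, against 3.12 with all. Forebrain patterning factors fell in 8 of 14 tested and rose in 2 (median -2.70). Emx1, of dorsal cortex, fell 45.5-fold and Otx1 rose 5.89-fold.

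Genes silent in cortex made up the other extreme. Nr5a1, which encodes the steroidogenic factor of adrenal and gonad (chromosome 2, 38692656 to 38714542, minus strand), had 0 reads in the cortex libraries and 400, 258 and 338 CPM in the NPY-labelled tumours, at least 2285-fold higher. Control tumours held 303, 227 and 368 CPM, a level that overlapped (log2 difference 0.24, limma adjusted p = 0.572). Akr1cl, whose start region is printed above, had 0 cortex reads and stood at 231, 30.6 and 325 CPM in the tumours, at least 1417-fold higher, with NPY replicate 2 far under the others. Dmrt1, a sex-determining factor of the testis (chromosome 19, 25505618 to 25604329), had 0 cortex reads and 94.6, 89.5 and 59.5 CPM, at least 545-fold higher. Tmem184a had 2 cortex reads and stood at 478, 87.8 and 483 CPM, a ratio of 3715.7 (exact 95% interval 1028.3 to 30685.9). Cxcl13 had 1 cortex read and stood at 78.1, 588 and 83 CPM, a ratio of 4852.6 (871 to 191695.5). Leaving out NPY replicate 2 moved the log2 fold change of Akr1cl from 9.94 to 10.96, of Tmem184a from 10.27 to 11.07 and of Cxcl13 from 9.82 to 8.84, and without NPY replicate 3 that of Akr1cl was 9.21.

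Further genes rose from near 0. Gata4, a factor of heart and gonad, stood at 155, 64.9 and 95.1 CPM against 1 read in cortex, a ratio of 2143.8 (384 to 84704.6). Wt1, a zinc finger factor of kidney and mesothelium, stood at 161, 221 and 144 CPM against 3 reads, a ratio of 1186.6 (406 to 5755.9), and its log2 fold change of 9.53 was 10.42 without cortex replicate 2. Mc2r, the receptor for corticotropin, stood at 151, 78.2 and 104 CPM against 1 read, a ratio of 2273.8 (408 to 89838.2). None of the 3 differed from control tumours beyond the threshold (adjusted p = 0.297, 0.573 and 0.149). Tnnt3, a fast muscle troponin (chromosome 7, 142498836 to 142516009), stood at 854, 497 and 646 CPM against 0.537, 0.335 and 0, with a log2 fold change of 10.79 (10.06 without cortex replicate 3). H19, an imprinted RNA on the same chromosome, stood at 7925.1, 1787.6 and 5029.4 CPM against 3.63 ± 0.76 in cortex. Its log2 fold change was 9.99, and 10.59 without NPY replicate 2. Of 22 listed gonadal and mesodermal genes 17 were tested, 13 rose and 2 fell (median 3.51). The 2 that fell were muscle genes: Acta1, skeletal actin, had 0 reads in the tumours, at least 87.6-fold lower, and Myl1 had 1 read, a ratio of 131 (22.9 to 5217.2).

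**Figure D4:**
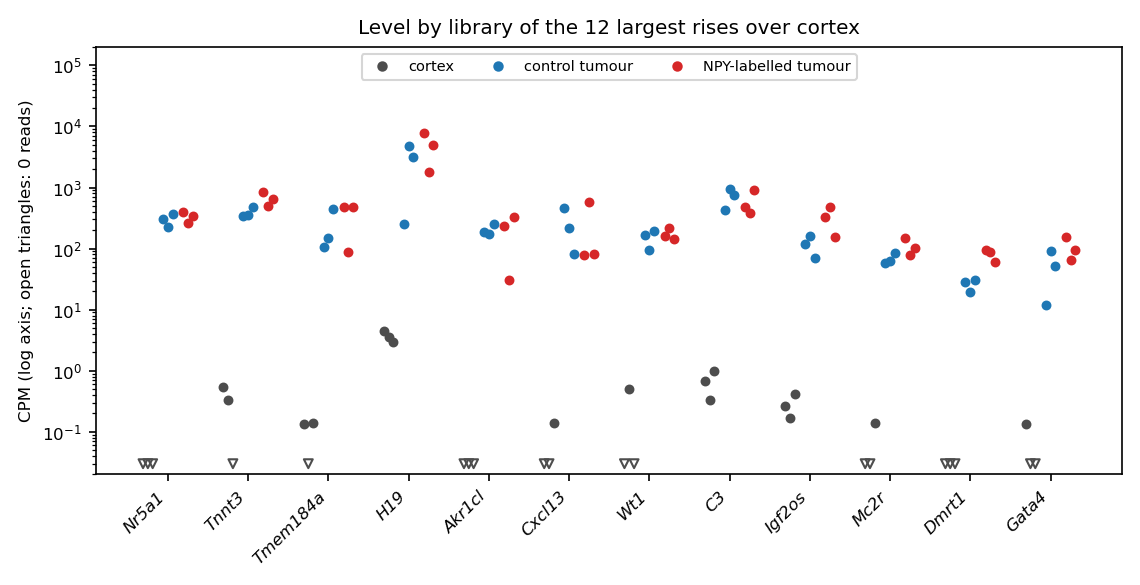
Points are libraries for the 12 genes that rose most over cortex (CPM, log axis), and open triangles at the bottom are libraries with 0 reads. In Nr5a1, Akr1cl and Dmrt1 all 3 cortex libraries are at 0, and Dmrt1 is the gene of the 12 in which NPY-labelled tumours, at 59.5 to 94.6 CPM, were called higher than control tumours, at 19.2 to 31 CPM.

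Genes tied to the tumour type rose in majority. Of 20 genes of the fusion signature, reported for this tumour in other work, 13 rose and 4 fell (median 1.75). The 13 include the fusion partners Rela and Zfta, whose counts cannot tell the fusion from the genes. Rela is counted in the NF-kB list below as well. Other members are shared too, such as Ccnd1 and Cdk6 with the G1 list and Igf2 with the insulin-like growth factor list. Igf2, a fetal growth factor, stood at 162, 167 and 130 CPM in cortex and at 5543.3, 4644.9 and 4335.6 in NPY-labelled tumours, 28.6-fold higher (log2 fold change 4.84, SE 0.15, limma adjusted p = 5.9e-07). Igf2os, its overlapping antisense RNA, rose from 0.285 ± 0.126 to 321 ± 163 CPM. The counting's use of strand is not given in the sources used here, so reads of the pair cannot be told apart. Ccnd1, cyclin D1, stood at 41, 49.8 and 47.9 CPM in cortex and at 883, 671 and 649 in the tumours, 14.2-fold higher. Ephb2, a receptor kinase, rose 15.3-fold. Cdk6, a G1 kinase, rose from 0.585 ± 0.274 to 22.8 ± 4.27 CPM. L1cam, a neuronal adhesion molecule used as a marker of this tumour, fell 46.2-fold, from 131 ± 18.2 to 3.09 ± 1.10 CPM. Insulin-like growth factor genes rose in 8 of 14 tested and fell in 2 (median 1.45), with Igfbp7, a binding protein, 19-fold higher. NF-kB subunits and targets rose in 20 of 21 tested (median 2.78). Icam1, an adhesion molecule, stood at 4.03, 3.02 and 3.2 CPM in cortex and at 343, 704 and 351 in the tumours, 113-fold higher. Tnfaip2 rose 130-fold, and Bcl3, a nuclear NF-kB partner with 2 reads in cortex, stood at 44.9, 55.6 and 52.1 CPM, a ratio of 525 (145 to 4338.3).

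Genes of mitosis and DNA replication rose. All 20 mitosis genes (median 5.23) and all 20 DNA replication genes (3.99) were called higher than cortex. Cdk1, the mitotic kinase, stood at 2.28, 1.68 and 1.67 CPM in cortex, at 124, 116 and 86.6 in control tumours and at 184, 211 and 170 in NPY-labelled tumours. It was 85.8-fold higher than cortex (log2 fold change 6.42, SE 0.19, limma adjusted p = 5.4e-07) and 0.88 higher on the log2 scale than control tumours (adjusted p = 0.0491). Mki67, the Ki-67 gene, rose 48.2-fold and Top2a, a topoisomerase, 62.7-fold, and neither passed against control tumours (adjusted p = 0.0607 and 0.0731). Mcm6, of the replicative helicase, rose 39.3-fold. Pcna, the polymerase clamp, rose 5.62-fold and was 0.73 higher on the log2 scale than in control tumours (adjusted p = 0.0423). Against control tumours 2 of 20 mitosis and 2 of 20 replication genes were called higher and 0 lower. Over all genes tested there 0.728% were called higher and 4.31% lower. The calls of Cdk1 and Pcna against control tumours were lost without any 1 of the 6 libraries (adjusted p = 0.0714 to 0.136 and 0.0553 to 0.163), with limma-voom (0.055 and 0.0507) and with a replicate block (0.0694 and 0.0777). That of Cdk1 was lost with edgeR too (0.0519). G1 cyclins, kinases and inhibitors rose in 13 of 17 and fell in 1 (median 2.69). Ccnd3 rose 27.6-fold, and Cdkn2a, the p16 and Arf locus, rose 313-fold, from 0.333 ± 0.315 to 160, 96.4 and 162 CPM. Rb1, the retinoblastoma gene, fell 1.63-fold, a call lost with the code prefix as a term (adjusted p = 0.0852). Genes of p53 targets mostly did not pass: 3 of 14 rose and 2 fell (median 0.05). Bbc3, the Puma gene, rose 3.14-fold and Zmat3 fell 3.48-fold.

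Immune transcripts were high. Interferon response genes rose in all 23 (median 5.13), MHC class I and peptide loading genes in all 12 tested of 13 (5.24) and class II genes in all 8 tested of 10 (6.08). Control tumours had medians over cortex of 5.62, 5.48 and 5.01 for these lists. Between the tumour groups 0 of 23, 0 of 12 and 1 of 10 tested members were called, against 5.03% of all genes. The class II median between the tumour groups was -0.14. B2m, the light chain of class I, stood at 65.1, 77 and 63.8 CPM in cortex and at 1788.2, 1622.6 and 1662.5 in NPY-labelled tumours, 22.3-fold higher (log2 fold change 4.48, SE 0.12, limma adjusted p = 4.8e-07). H2-K1, a class I heavy chain with near-identical relatives that reads may be split among, rose 67.7-fold. Irf7, an interferon regulatory factor, rose 166-fold and Ifitm3, an antiviral membrane protein, 32.6-fold, from 8.50 ± 0.0465 to 311 ± 14.1 CPM. Mx1, an antiviral GTPase with 2 reads in cortex, rose to 16.2, 56 and 22.2 CPM, a ratio of 316 (87.1 to 2611.7). H2-Aa, a class II chain, varied among the tumours at 668, 85.8 and 612 CPM against 1.34, 3.19 and 1.67 in cortex. Its log2 fold change was 7.17, and 8.13 without NPY replicate 2. H2-Eb1, another class II chain, stood at 1.48, 0.503 and 1.81 CPM in cortex, at 6.46, 12.9 and 1.12 in control tumours and at 343, 43.6 and 162 in NPY-labelled tumours. It rose 97.9-fold over cortex (62.4-fold without NPY replicate 1, 171-fold without NPY replicate 2, adjusted p = 0.0509 with the code prefix as a term). The step over control tumours was 4.91 on the log2 scale (adjusted p = 0.05 as rounded, just under the threshold). It was lost without any 1 library other than NPY replicate 2 (adjusted p = 0.0941 to 0.137), and with TMM, edgeR, limma-voom, a pseudocount of 0.5, a mean of at least 5 CPM, a replicate block and the code prefix as a term (0.0509 to 0.498).

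Macrophage and phagocyte genes rose in 21 of 23 and fell in 1 (median 3.53). C1qa, a complement subunit of microglia and macrophages, stood at 56.4, 64.1 and 71 CPM in cortex and at 602, 1209.4 and 741 in the tumours, 11.6-fold higher. Lyz2, lysozyme, rose from 6.43 ± 2.0 CPM to 946, 4398.6 and 2734.6, with a log2 fold change of 8.33 (8.98 without NPY replicate 1). Fabp5, a fatty acid binding protein that neurons and glia express too, fell 2.39-fold. Homeostatic microglia genes rose in 7 of 11 and fell in 2 (median 1.0). Tmem119 rose 8.4-fold, whereas P2ry12, by which resting microglia sense nucleotides, fell 2.71-fold from 99.8 ± 13.4 to 40.9 ± 7.84 CPM, and Siglech fell 6.31-fold. With the code prefix as a term Tmem119 and Siglech were not called (adjusted p = 0.0663 and 0.1). Complement genes rose in 14 of 15 tested and fell in 1 (median 3.76). C3, the central component, stood at 0.672, 0.335 and 0.974 CPM in cortex and at 476, 383 and 894 in the tumours, 673-fold higher, and Cd55, an inhibitor, fell 3.82-fold (adjusted p = 0.476 with the code prefix as a term). Chemokines and receptors rose in 17 of 20 and fell in 2 (median 5.19). Ccl12 rose 173-fold, and Cxcl12 fell 2.05-fold. Between NPY-labelled and control tumours 0 of 23 macrophage, 0 of 11 microglia, 0 of 16 complement and 0 of 20 chemokine list members were called. The share over all genes tested there was 5.03%.

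Other blood cell lists were thinly measured. Members low in cortex passed the filter on low reads only where the tumour libraries held enough reads. Counts and medians of the tested members therefore lean towards rises and leave the filtered members out. Lymphocyte genes passed the filter for 4 of 15, and 3 rose (median 2.90, or 2.82 with the member at 0 cortex reads set at its bound). Cd79a, of B cells, stood at 77, 2.43 and 201 CPM in the tumours against 0.728 ± 0.224 in cortex. Its log2 fold change of 5.22 was 7.08 without NPY replicate 2 and 3.95 without NPY replicate 3, and limma-voom did not call it (adjusted p = 0.268). Of 12 neutrophil genes 3 were tested and 3 rose (median 4.92). Lcn2, lipocalin, rose 75.2-fold to 30.7, 15 and 61.1 CPM. Of 8 red blood cell genes 2 were tested, 1 rose and 1 did not pass (median 1.64), and the summed list stood at 7.52 to 19.5 CPM in cortex and 7.29 to 29.7 in the tumours. Their part in any other result was not tested.

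Vessel and stromal lists were mixed. Endothelial genes rose in 6 of 16 and fell in 3 (median 0.53). Cdh5, the endothelial cadherin, rose 3.98-fold to 28.7, 23.7 and 86.3 CPM. Slco1a4, a transporter of the blood-brain barrier, stood at 45, 31.9 and 26.9 CPM in cortex, at 28.1, 36.8 and 20.3 in control tumours and at 3.28, 6.94 and 2.96 in NPY-labelled tumours. It was lower than cortex 8.89-fold and lower than control tumours by 2.64 on the log2 scale (limma adjusted p = 0.0229, and 0.0727 to 0.0961 without NPY replicate 1 or any 1 control library). Pericyte and smooth muscle genes rose in 3 of 12 tested and fell in 3 (median 0.48), with Pdgfrb, a pericyte receptor, 8-fold higher. Meningeal fibroblast genes rose in 6 of 11 tested and fell in 2 (median 1.13, which turned to -0.29 with the code prefix as a term). Ptgds, prostaglandin D synthase, fell from 904 ± 176 to 143, 29.2 and 38.4 CPM, 18.1-fold and 28.7-fold without NPY replicate 1 (adjusted p = 0.0553 with the code prefix as a term). Matrix genes rose in 16 of 20 and fell in 1 (median 3.09). Col1a1, a fibrillar collagen, rose 59.2-fold to 465, 1402.3 and 1232.8 CPM, and Fn1, fibronectin, 23.8-fold to 1459.1 ± 311. Lama2, a laminin chain, fell 2.59-fold, and its call (adjusted p = 0.0195) ended without cortex replicate 1, 2 or 3 (adjusted p = 0.0658, 0.0544 and 0.0562) and with the code prefix as a term (0.573). Matrix protease genes rose in 11 of 18 and fell in 3 (median 2.14). Mmp14, a membrane protease, rose 22.7-fold and Timp3, an inhibitor, 4.44-fold. Mmp17, a membrane-anchored protease, stood at 195, 229 and 212 CPM in cortex and at 3.4, 3.53 and 3.63 in the tumours, and was lower than control tumours by 2.77 on the log2 scale (adjusted p = 0.0122, and 0.0678 without control replicate 2).

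Developmental pathways held rises and falls. Hedgehog genes rose in 7 of 12 tested and fell in 3 (median 1.71), Wnt genes rose in 10 of 22 and fell in 6 (0.76), TGF-beta and BMP genes rose in 12 of 22 tested and fell in 6 (1.15), and Notch genes rose in 9 of 17 and fell in 3 (0.76). Lfng, which modifies Notch, stood at 23.8, 24.7 and 23.2 CPM in cortex and at 206, 206 and 266 in the tumours, and Notch1 rose 5.51-fold. Cdon, a Hedgehog co-receptor, rose 12.8-fold and Lrp5, a Wnt co-receptor, 24.6-fold. Dkk3, a secreted relative of Wnt inhibitors, stood at 322, 306 and 172 CPM in cortex, at 130, 92.5 and 119 in control tumours and at 17.5, 27.9 and 36 in NPY-labelled tumours. It was lower than control tumours by 2.03 on the log2 scale (limma adjusted p = 0.0182, and 0.0715 to 0.0895 without any 1 control library), and its 10.9-fold fall against cortex was not called with the code prefix as a term (adjusted p = 0.0689). Inhbb, an activin chain, rose 28.2-fold and Bmp7 14.1-fold. ERK feedback genes and ETS factors rose in 4 of 15 tested and fell in 6 (median -0.17). Mouse Etv5 stood at 106, 144 and 109 CPM in cortex and at 346, 326 and 251 in the tumours, 2.33-fold higher. Spry4 rose 3.71-fold, Spred1 fell 1.98-fold, and Dusp4, an ERK phosphatase, rose 4.51-fold (adjusted p = 0.0934 with the code prefix as a term). Immediate early genes fell in 11 of 16 and rose in 2 (median -1.72). Arc, of active synapses, fell 108-fold and Egr1 3.84-fold. Jun and Ier2 rose, 1.68-fold and 3.08-fold, and neither was called with the code prefix as a term (adjusted p = 0.951 and 0.0563).

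Metabolic lists had medians near 0, apart from the ribosome. All 22 cytosolic ribosomal protein genes rose (median 1.39). Rplp0 stood at 313, 293 and 335 CPM in cortex and at 1290.2, 1510.4 and 1535.6 in the tumours, 4.16-fold higher, and Rpl4 rose 1.96-fold. Many of these genes have near-identical copies that reads may be split among. Glycolysis and hypoxia genes rose in 6 of 20 and fell in 5 (median -0.03): Hk2, a hexokinase, rose 14.2-fold and Pfkm, the muscle phosphofructokinase, fell 7.64-fold. Respiratory chain genes rose in 2 of 22 and fell in 6 (median -0.19), among them Sdha, a subunit of succinate dehydrogenase, which fell 1.94-fold (adjusted p = 0.052 with the code prefix as a term). Cholesterol synthesis genes fell in 9 of 19 and rose in 1 (median -0.45). Histone and DNA modifiers rose in 11 of 24 tested and fell in 5 (median 0.26). Uhrf1, a partner of DNA methyltransferase, stood at 3.09, 3.69 and 2.78 CPM in cortex and at 169, 312 and 183 in the tumours, 58.6-fold higher. Ezh2, the Polycomb methyltransferase, rose 6.03-fold and Hdac5, a deacetylase, fell 3.58-fold.

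**Figure D5:**
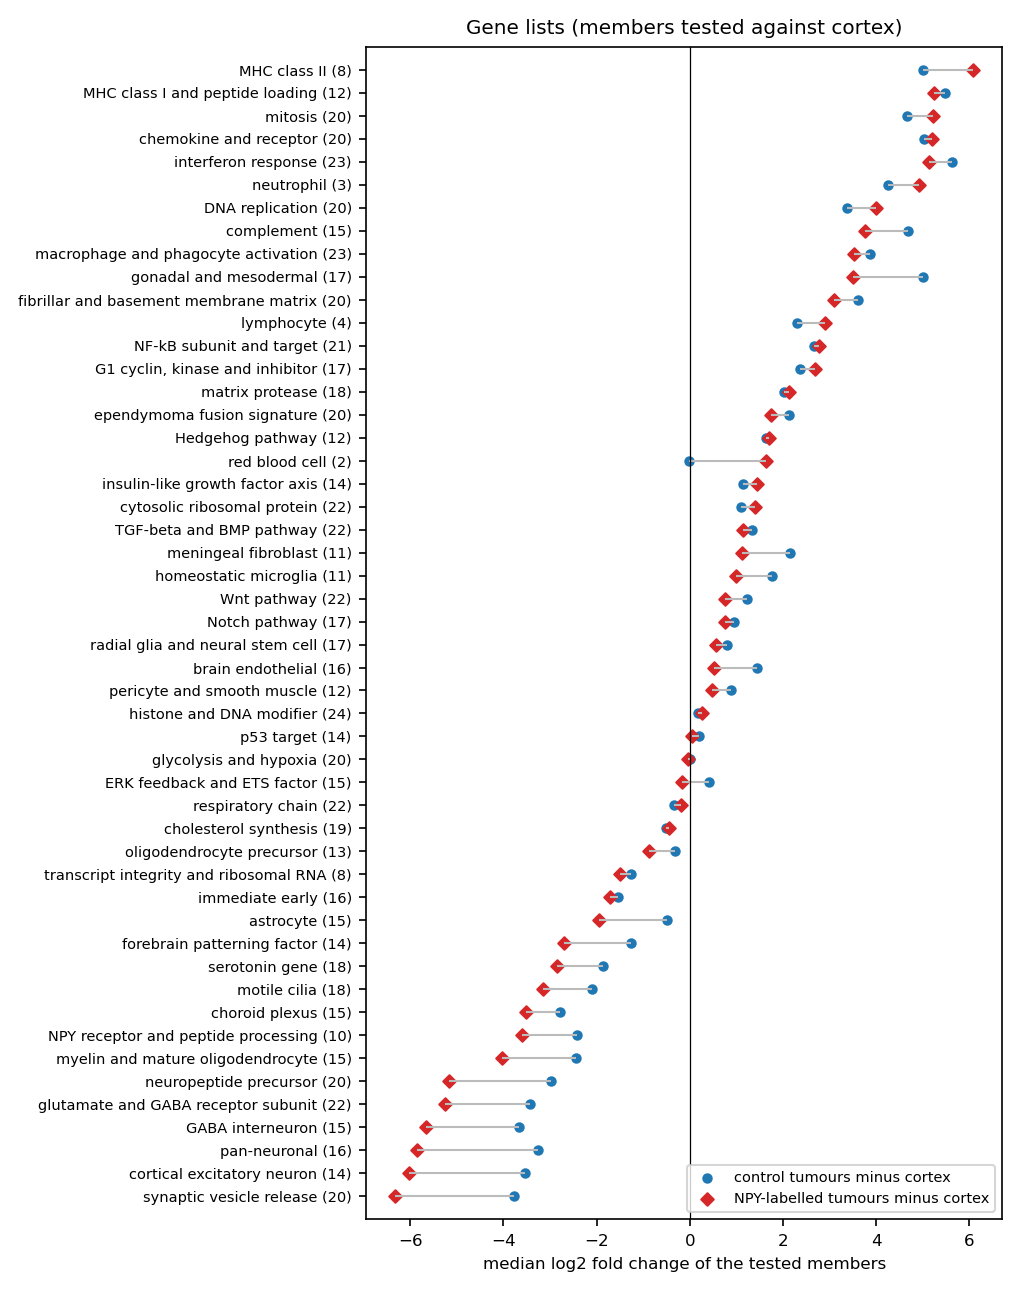
Each row is 1 of the 50 gene lists with the number of members tested against cortex. Red diamonds are the median log2 fold change of NPY-labelled tumours minus cortex and blue circles that of control tumours minus cortex, which share the cortex libraries. The lists run from synaptic vesicle release at -6.32 to MHC class II at 6.08, and the neuronal lists lie further from 0 in NPY-labelled than in control tumours.

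Among the largest rises of NPY-labelled over control tumours were genes of varied function. Alox15, a lipoxygenase, had 0 reads in cortex and stood at 36.6, 45.2 and 28.7 CPM in NPY-labelled tumours, at least 248-fold higher. Control tumours held 13.8, 11.7 and 11.6 CPM, and the difference was 1.63 on the log2 scale (limma adjusted p = 0.0159). Dmrt1 was higher than in control tumours by 1.71 (adjusted p = 0.0211) and Ripk3, a kinase of necroptosis, by 1.46 (0.0189). Ripk3 stood at 0.537, 0.335 and 0.139 CPM in cortex and at 107, 74.5 and 63.4 in the NPY-labelled tumours. Syce2, of the synaptonemal complex, rose 27.7-fold over cortex and Clcn5, a chloride transporter, 5.96-fold. The steps over control tumours were 1.54 and 1.71 (adjusted p = 0.02 and 0.0289). Zfp641, a zinc finger gene, was 2.15-fold higher than cortex and 1.52 higher on the log2 scale than control tumours (0.0265). With the code prefix as a term Clcn5 and Zfp641 were not called against cortex (adjusted p = 0.0754 and 0.142). Lmbrd2 did not differ from cortex beyond the threshold (26.5 ± 4.05 against 24.2 ± 3.46 CPM) and stood 1.45 over control tumours (0.032). Each of these 7 genes lay over all controls in 3 of 3 NPY-labelled libraries, and all of these steps over control tumours were lost without any 1 control library (adjusted p = 0.0513 to 0.121 over the omissions that ended them). Except for Ripk3 they were lost without NPY replicate 1 as well. With the code prefix as a term none of the 7 steps over control tumours was called (adjusted p = 0.187 to 0.807). They then ran from 0.35 (Lmbrd2) to 1.90 (Alox15).

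Of 8 listed transcript integrity and ribosomal RNA genes 1 rose and 4 fell (median -1.49). All 4 falls were at least 4-fold, and the largest was -7.78 on the log2 scale. Of these falls only that of Malat1 is described here, and whether the median reflects RNA quality was not tested. Malat1, a nuclear RNA, stood at 376, 311 and 408 CPM in cortex, at 163, 146 and 162 in control tumours and at 45.9, 65.9 and 55.2 in NPY-labelled tumours. It fell 7.26-fold against cortex and by 1.42 on the log2 scale against control tumours (limma adjusted p = 0.0137). Neat1, the paraspeckle RNA, rose 3.85-fold over cortex to 129 ± 39.1 CPM and was lower than control tumours by 1.36 (adjusted p = 0.03). Rn45s and Lars2, a gene that often collects ribosomal reads, were higher than in control tumours by 2.33 and 1.51 (adjusted p = 0.0491 and 0.0292) and did not pass against cortex (0.19 and 0.622). Each of these 4 calls against control tumours was lost without any 1 control library (adjusted p = 0.0534 to 0.163 over the omissions that ended them). With the code prefix as a term none of the 4 was called against control tumours (adjusted p = 0.207 to 0.99). The steps of Rn45s and Lars2 became 0.07 and 0.03, and those of Malat1 and Neat1 -1.02 and -0.74. ETV5 replicate 3, coded EC, held Rn45s at 5503.5 and Lars2 at 791 CPM. ETV5 replicates 1 and 2, coded DS, held 1409.5 and 1078.9 of Rn45s and 303 and 305 of Lars2. Code and group coincide in the libraries compared, and the part of these genes in the other results was not tested.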

How the data were processed

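The 12 polyA RNA libraries were made with a stranded kit from 300 ng of total RNA, per the labels. The authors deposited 2 tables of 24421 genes holding a normalized signal. In each library the values were multiples of the value of 1 read, and dividing by it gave whole reads for 100% of them (tolerance 0.01 read). Control reads were identical in both tables. The tools named, per the submitters' processing notes, were STAR 2.5.0a with build mm10, DESeq2 1.30.1, FastQC 0.11.7 and MultiQC 1.6, with no role or order stated. The counting tool was not given in the sources used here, nor was the annotation. Symbols turned into dates numbered 27 in each, and 2 names were repeated.

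Reads of the 6 libraries were joined by row, rescaled by median of ratios and tested with limma 3.58.1 (trend, robust, two-sided, group as the sole term, R 4.3.3) on log2(value + 1), after the edgeR 4.0.16 filter (at least 10 reads in 3 libraries, scaled to depth, and 15 in all). The method was tested on simulated data in which far fewer genes changed than were called here against cortex. That test therefore does not cover scaling where most genes change. Alternatives used TMM and total-read scaling, pseudocounts 0.5 and 5, other filters, edgeR, DESeq2 1.42.0, limma-voom, 12 libraries, the code prefix, a replicate block and each library left out. Control tumours were compared with both groups in the same way. Replicate numbers did not pair libraries (correlation of same-numbered cortex and NPY-labelled libraries 0.0171, -0.00512 and 0.0288). Same-numbered control and NPY-labelled libraries correlated at -0.392, 0.129 and 0.365, and differently numbered ones at -0.542 to 0.507.

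The 50 gene lists hold 863 members, of which 860 were in the tables. The members are 827 distinct genes, so some lists share genes and are not separate evidence. Members and lists were chosen with earlier results of these data known. Named genes were the targeted, NPY-system and fusion genes; the 12 largest called rises and falls with at least 20 CPM in the higher group and no overlap; the 10 largest against control tumours; and per list up to 3 called per direction, the 2 most abundant and those against the majority. Some are not reported here. Positions are from GENCODE M21 for 315 of 317 such genes. Bounds use 3 reads over a group, and intervals are exact (Clopper-Pearson, 95%).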

Additional observations from a re-analysis of the deposited data

Results flagged for a closer look

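For 44 named genes the distance of NPY-labelled tumours from cortex differed from that of control tumours, since the direct difference between the tumour groups was called by limma (Benjamini-Hochberg adjusted p under 0.05). Some of them were named because they were among the largest called differences between these groups, so their calls were fixed by that choice. Neurod6, Slc30a3, Gabrd and Cacng3, near 0 in NPY-labelled tumours, passed the filter on low reads only through the control tumours, which largely fixes their direction. Over all genes 726 of 14425 were called (5.03%). Values in parentheses are log2 differences, NPY-labelled minus control tumours. Among genes of neurons these were Cacng3 (-4.19), Camkv (-3.34), Gabrd (-4.01), Hpca (-4.72), Kcnip2 (-2.92), Neurod6 (-4.74), Slc30a3 (-5.82), Snap25 (-4.53), Vsnl1 (-4.83), Rph3a (-4.42), Slc17a7 (-4.22), Tbr1 (-3.80), Camk2a (-3.56), Nrgn (-3.80), Gad2 (-3.36) and Syt1 (-4.08). Among peptide signalling genes they were Npy2r (-3.11), Pcsk2 (-4.07), Scg5 (-2.41), Pcsk1n (-2.21), Chga (-4.21) and Chgb (-4.05). Other genes lower in NPY-labelled tumours were Malat1 (-1.42), Neat1 (-1.36), Gpr17 (-1.12), Slc1a2 (-2.75), Slc1a3 (-2.48), Gjb6 (-3.28), Slco1a4 (-2.64), Mmp17 (-2.77), Dkk3 (-2.03) and Emx1 (-2.72). Those higher were Dmrt1 (1.71), Alox15 (1.63), Clcn5 (1.71), H2-Eb1 (4.91), Lars2 (1.51), Lmbrd2 (1.45), Ripk3 (1.46), Rn45s (2.33), Syce2 (1.54), Zfp641 (1.52), Cdk1 (0.88) and Pcna (0.73). Of these 44 calls, 1 was kept with the code prefix as a term, 0 without control replicate 2, 12 without control replicate 3, 16 without control replicate 1 and 22 without NPY replicate 1. Leaving out 1 library at a time ended 11 of them in 1 case of 6 (control replicate 2), and 5 of them (Npy2r, Kcnip2, Lmbrd2, Cdk1 and Pcna) in all 6. DESeq2, which called the most genes between these groups, kept 44, edgeR 39, limma-voom 34, the fit over all 12 libraries 34 and the replicate block 27.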

How the results depend on the processing

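Against cortex, the 10366 calls became 6863 with the library code prefix as a term, and 9488 to 11292 with 1 library left out; the other alternatives stayed within 1.5 times. Against control tumours, the 726 calls (105 higher, 621 lower) became 1833 with DESeq2 (606 higher, 1227 lower), 1162 with all 12 libraries, 32 with the prefix as a term, and 1 to 572 with 1 library left out. Control tumours against cortex stayed within 1.5 times of 10531 calls. The causes were not tested. Replicate numbers did not pair the libraries by their correlations, although number and sex coincide in these groups, and sex as a term was not fitted. With a replicate block the counts were 10064 against cortex, 264 for NPY-labelled against control tumours and 10156 for control tumours against cortex.

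Of 152 named calls against cortex, 152 were kept with edgeR, TMM and total-read scaling, 151 with DESeq2 and 127 with the prefix as a term. With that term Dpp4 turned to 0.29, Ddc to -0.09, Apoe to -0.04 and the meningeal fibroblast median to -0.29. The red blood cell median turned to -0.39 at a mean of at least 5 CPM and with no filter, where 1 and 3 genes were tested. Medians near 0 crossed it for the ERK and ETS list (-0.32 to 0.09), glycolysis and hypoxia (-0.36 to 0.34) and p53 targets (-0.03 to 0.19), and the other list medians kept their sign under the alternatives run. Depth limits the lowest genes: bounds and intervals cover counting error only, and the 3 libraries per group limit the rest.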
